A study of Mus musculus with 13 samples.

Results

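The genes of iron handling and hepcidin were followed in the livers of mice given a carcinogen and a high-fat diet. They are 10 genes grouped by role: *Hamp* and *Hamp2*, *Trf*, *Tfrc*, *Tfr2*, *Hfe*, *Slc40a1*, *Cp*, *Fth1* and *Ftl1*. The count table held 53465 genes, 13545 passed the filter on low counts, and 10 of the 10 iron genes were among them. Liver RNA came from 13 male BALB/c mice, 6 wild-type (WT) and 7 *Nod2*-/-. Every mouse in both groups had been painted as a newborn with the polycyclic hydrocarbon DMBA and then held on high-fat diet, with an age of 30 weeks in the labels, so that the genotypes were compared under 1 shared treatment, with no untreated liver beside them. *Nod2* encodes an intracellular sensor of bacterial peptidoglycan, and the *Nod2*-/- mice lacked it in every cell. WT and *Nod2*-/- mice were bred as separate lines in 1 room rather than as littermates, and the labels give the disease state as cancer in both groups. The study reports liver tumours in most *Nod2*-/- males under this treatment but in a minority of WT males. How much tumour each piece of liver held is not given, so tumour burden cannot be told apart from genotype in the comparisons below. The libraries hold between 13824780 and 20579984 counts per mouse.

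Iron enters hepatocytes bound to transferrin, through transferrin receptors at the surface, is stored inside ferritin and leaves cells through ferroportin. The liver also sets the iron level of the whole body: hepatocytes secrete hepcidin, which binds ferroportin and removes it from the surface of macrophages, gut cells and hepatocytes. Transcription of the hepcidin gene is raised by iron through BMP ligands and SMAD proteins and by inflammation through IL-6 and STAT3, and is lowered when red cell production draws on iron. A separate control works on finished mRNA. Iron regulatory proteins bind hairpins called iron responsive elements when iron is scarce, which blocks translation of ferritin and ferroportin mRNA and stabilises transferrin receptor mRNA.

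The hepcidin promoters are shown because that of *Hamp* holds the letters through which both inputs are known to act. *Hamp* and *Hamp2* are a duplicated pair on chromosome 7. The 240 bases printed end 10 bases before the transcription start that RefSeq gives on GRCm38.p6, a C57BL/6J reference and not BALB/c, and capitals mark the BMP response letters GGCGCC and the STAT letters TTCNNNGAA at their place or, in *Hamp2*, the aligned place of the first.
*Hamp*, chr7:30944040-30944279, minus strand: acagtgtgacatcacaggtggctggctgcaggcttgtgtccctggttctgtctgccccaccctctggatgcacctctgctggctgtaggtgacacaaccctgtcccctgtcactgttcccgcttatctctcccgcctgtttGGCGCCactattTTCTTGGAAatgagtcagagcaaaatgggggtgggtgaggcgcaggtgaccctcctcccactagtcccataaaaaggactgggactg
*Hamp2*, chr7:30924192-30924431, minus strand: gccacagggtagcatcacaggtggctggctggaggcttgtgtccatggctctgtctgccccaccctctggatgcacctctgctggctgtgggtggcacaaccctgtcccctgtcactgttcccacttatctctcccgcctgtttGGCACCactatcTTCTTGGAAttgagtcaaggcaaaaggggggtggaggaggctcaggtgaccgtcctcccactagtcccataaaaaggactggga
The windows aligned over 237 bases, of which 218 (92.0%) were identical, with 6 gap columns. In *Hamp* the letters GGCGCC began at -109 and TTCTTGGAA at -97. The *Hamp2* window carried TTCTTGGAA at -94 without a substitution, and at -106 the substitution G4A, counted from the first base of the GGCGCC motif. Both motifs read the same on either strand in the fixed letters and do not overlap. GGCGCC was present in 9.08% of 32851 RefSeq promoter windows, TTCNNNGAA in 6.77%, and both in 0.353%. Windows were found for 8 of the 10 genes. Beyond the hepcidin pair, the only match in those windows was GGCGCC at -89 of *Tfrc*. These are letters in a reference, and binding was not measured.

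The iron responsive elements are shown because they sort the iron genes by how iron acts on their mRNA. A search of GENCODE M21 transcripts on GRCm38 for a C, 5 bases, the loop CAGTGN or CAGAGN (with a last base other than G) and 5 bases that pair with the first 5, G-T pairs allowed, found a match in the 5′ UTR of *Fth1*, *Ftl1* and *Slc40a1* and 5 in the 3′ UTR of *Tfrc*. The loop is in capitals.
*Fth1*, 5′ UTR, chr19:9982732-9982760, plus strand: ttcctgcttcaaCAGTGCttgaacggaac
*Ftl1*, 5′ UTR, chr7:45459779-45459807, minus strand: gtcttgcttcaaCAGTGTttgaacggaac
*Slc40a1*, 5′ UTR, chr1:45925465-45925493, minus strand: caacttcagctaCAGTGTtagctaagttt
*Tfrc*, 3′ UTR site 1, chr16:32631160-32631188, plus strand: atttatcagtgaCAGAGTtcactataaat
*Tfrc*, 3′ UTR site 2, chr16:32631219-32631247, plus strand: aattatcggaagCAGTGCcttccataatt
*Tfrc*, 3′ UTR site 3, chr16:32631598-32631626, plus strand: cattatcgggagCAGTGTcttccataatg
*Tfrc*, 3′ UTR site 4, chr16:32631663-32631691, plus strand: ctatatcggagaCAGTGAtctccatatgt
*Tfrc*, 3′ UTR site 5, chr16:32631710-32631738, plus strand: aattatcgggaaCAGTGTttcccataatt
Among 21901 coding genes, 0.242% had such a match in the 5′ UTR and 0.872% in the 3′ UTR. Counts of mRNA can carry the effect on *Tfrc* stability, whereas an effect on translation of the other 3 mRNAs would not appear in them.

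None of the 10 iron genes passed 5% FDR between *Nod2*-/- and WT livers in edgeR's quasi-likelihood test, where 1.16% of all tested genes did. At an unadjusted p under 0.05 there were 4, a share to be read against 23.1% of all tested genes: *Trf*, *Tfrc* and *Cp* were higher in the mean of *Nod2*-/- mice and *Hamp2* was lower. By the exact permutation test 2 of the 10, *Trf* and *Ftl1*, had an unadjusted p under 0.05, where 22.1% of all tested genes did and 0 passed after adjustment. DESeq2 called 1 of the 10, *Trf*, where it called 8.41% of all genes. The groups overlapped for every one of the 10, as they did for all but 1.44% of tested genes. The median log2 fold change of the 10 was 0.06, beside 0.02 over all tested genes. Values below are normalized counts, meaning read counts brought to 1 common effective library size, unless TPM (counts per base of exon, scaled to the same total in each mouse) or CPM (counts scaled to library size) is named, and tests are two-sided with Benjamini-Hochberg adjustment over all 13545 genes. The labels do not say whether any mice shared a litter, cage or sequencing run, so no batch could be compared.

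**Figure D1:**
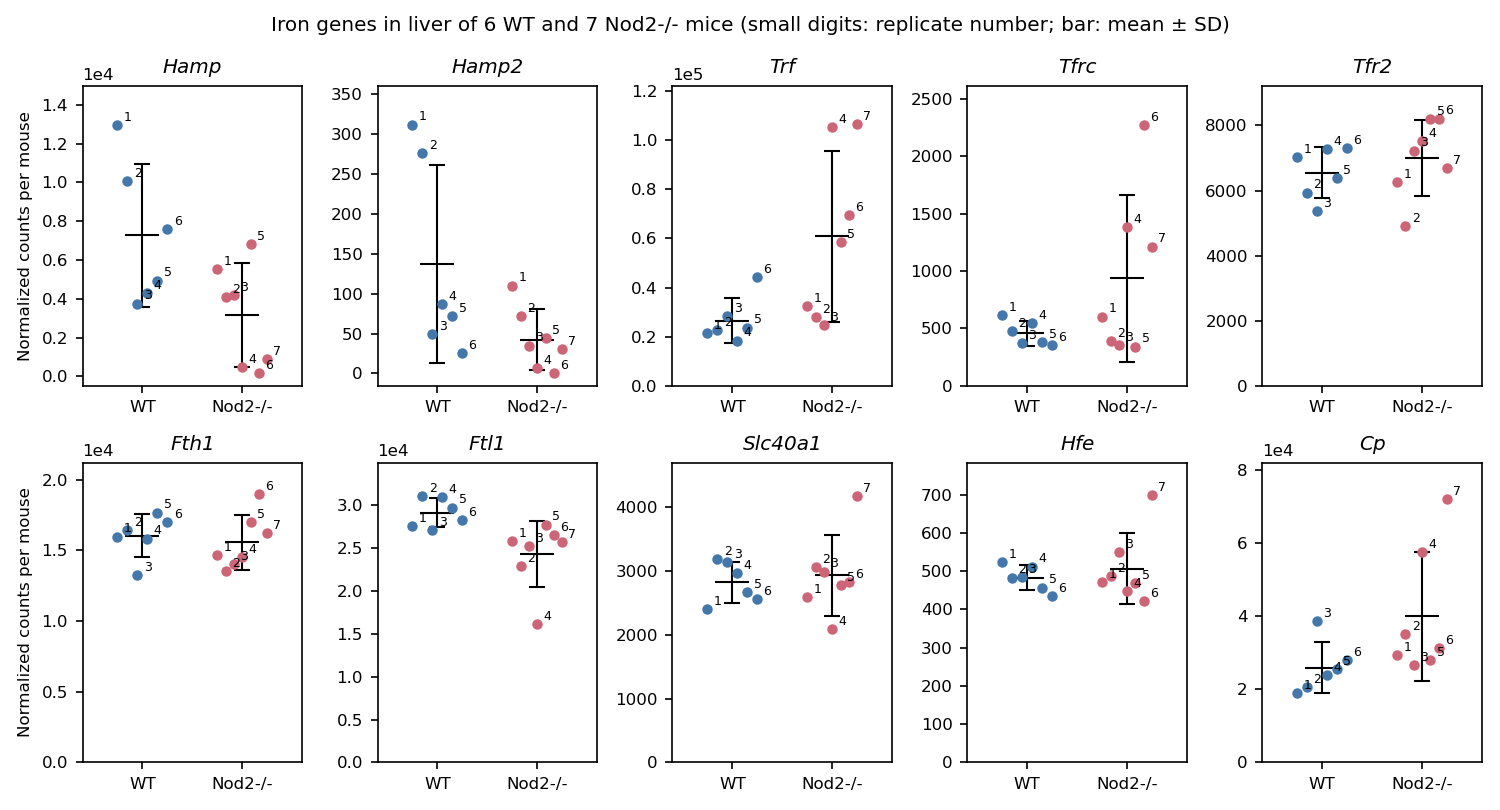
Normalized counts (y axis, linear, starting at or just below 0) of each iron gene in each mouse, with WT in blue, *Nod2*-/- in red, small digits giving the replicate number and black bars the mean ± SD. *Nod2*-/- replicates 4, 6 and 7 hold the lowest *Hamp* values and the highest *Tfrc* values of the 13 mice, and the groups overlap in every panel.

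*Hamp*, which encodes hepcidin, had the widest spread on the log2 scale of the 10 genes among *Nod2*-/- livers. Its gene spans chr7:30942368-30944032 on the minus strand. In WT mice *Hamp* ran from 3752 to 12968 normalized counts with a median of 6259. Among *Nod2*-/- mice it ran from 145 to 6826 with a median of 4068.5. Replicates 4, 6 and 7 had 472, 145 and 886, all below the lowest WT mouse, while the other 4 had between 4068.5 and 6826 and lay inside the WT range. The means were 7267 ± 3668 (SD, n = 6) and 3159 ± 2659 (SD, n = 7). By edgeR the log2 fold change was -1.20 ± 0.67 (SE, adjusted p = 0.29), and the exact permutation test over 1716 splits of the mice gave p = 0.0571. The difference in means did not pass either test, and the spread was unequal: the SD of log2 CPM was 2.12 in *Nod2*-/- and 0.72 in WT mice, a ratio of 2.95 that 2.25% of tested genes exceeded.

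*Hamp2*, the hepcidin paralog, was expressed far below *Hamp*. Per base of annotated exon it reached 32.3 ± 27.4 TPM in WT livers (SD, n = 6) against 2478 ± 1102 TPM for *Hamp*. The WT normalized counts of *Hamp2* ran from 25.4 to 312 with a median of 79.2. *Nod2*-/- mice ran from 0 to 110 with a median of 34.9. *Nod2*-/- replicates 6 and 4, with 0 and 6.98, were the lowest for *Hamp2* as they were for *Hamp*, but replicate 7, with 30.4, lay inside the WT range. WT replicates 1 and 2 were highest for both genes. edgeR gave a log2 fold change of -1.68 ± 0.72 (SE, adjusted p = 0.183), and the exact permutation test gave p = 0.0758. Since the 2 genes are near copies, reads of 1 could have been counted for the other: with their counts summed, the log2 fold change was -1.21 ± 0.67 (SE), close to that of *Hamp* alone.

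*Trf* encodes transferrin, the plasma protein that carries iron, and had the smallest edgeR p of the 10. It was among the genes the study itself listed from these samples, so its direction here is not independent evidence. In WT mice *Trf* ran from 18445 to 44150 normalized counts with a median of 23192. *Nod2*-/- mice ran from 24621 to 106480 with a median of 58682. Replicates 4, 5, 6 and 7 exceeded every WT mouse, and replicates 1, 2 and 3 did not. Its log2 fold change was 1.20 ± 0.36 (SE), with an adjusted p of 0.0875 by edgeR and 0.0147 by DESeq2. The exact permutation test gave p = 0.0297, which was 0.182 after adjustment over all tested genes. With each mouse left out in turn, edgeR's adjusted p for *Trf* lay between 0.0551 and 0.191.

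*Tfrc* encodes transferrin receptor 1, the main importer of transferrin-bound iron, and carries the 5 iron responsive elements printed above. WT livers held 354 to 619 normalized counts of *Tfrc*, with a median of 429. *Nod2*-/- livers held 343 to 2270, with a median of 603. The excess lay in replicates 6, 4 and 7, at 2270, 1381 and 1213, while the other 4 lay between 343 and 603 and 2 of these were below the lowest WT mouse. Its log2 fold change was 1.03 ± 0.42 (SE, edgeR adjusted p = 0.166), and the exact permutation test gave p = 0.168. It depended on *Nod2*-/- replicate 6, without which it was 0.64, and was 0.48 with voomWithQualityWeights, which gives less weight to mice that vary more. Among tested genes, 1.42% had a larger ratio of *Nod2*-/- to WT SD than the 3.30 of *Tfrc*. The 3 mice highest in *Tfrc* were thus the 3 lowest in *Hamp*, and *Nod2*-/- replicate 6 was at the extreme of both. Among the WT mice, by contrast, replicate 1 had the highest *Hamp* and also the highest *Tfrc*.

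*Tfr2* and *Hfe* encode the second transferrin receptor and the haemochromatosis protein, which sense plasma iron at the hepatocyte surface upstream of hepcidin. *Tfr2* ran from 5371 to 7304 normalized counts in WT and from 4911 to 8209 in *Nod2*-/- mice, with medians of 6714 and 7226. Its log2 fold change was 0.09 ± 0.13 (SE, edgeR adjusted p = 0.682). *Hfe* ran from 436 to 524 in WT and from 422 to 699 in *Nod2*-/- mice, with medians of 484 and 472. The *Hfe* log2 fold change was 0.07 ± 0.11 (SE, edgeR adjusted p = 0.729). It turned to -0.02 without *Nod2*-/- replicate 7, the mouse with 699. In the 3 mice with the least *Hamp* mRNA, *Tfr2* stood at 6678 to 8209, inside or above the WT range. *Hfe* stood at 422 to 699 in these mice, which are its lowest and its highest value of the 13 mice. *Nod2*-/- replicate 5, with the most *Hamp* of its group at 6826, held 8191 of *Tfr2*, also above the WT range.

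*Slc40a1* encodes ferroportin, the iron exporter that hepcidin removes, and *Cp* encodes ceruloplasmin, a plasma ferroxidase that loads iron onto transferrin and is also an acute phase protein. *Slc40a1* ran from 2406 to 3182 normalized counts in WT and from 2093 to 4171 in *Nod2*-/- mice, with medians of 2816 and 2831. The log2 fold change of 0.06 ± 0.13 (SE, edgeR adjusted p = 0.835) became -0.05 without *Nod2*-/- replicate 7, which held 4171. *Cp* ran from 18885 to 38549 in WT, with a median of 24638, and from 26668 to 71833 in *Nod2*-/- mice, with a median of 31324. *Nod2*-/- replicates 7 and 4, at 71833 and 57482, were the only mice above the highest WT mouse. For *Cp* the log2 fold change was 0.63 ± 0.26 (SE, edgeR adjusted p = 0.171), and the exact permutation test gave p = 0.0589.

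Ferritin, the iron store of the cell, is built of 2 kinds of subunit. *Fth1* encodes the heavy chain, which oxidises iron for storage, and *Ftl1* the light chain, which supports the mineral core. *Fth1* ran from 13244 to 17685 normalized counts in WT and from 13531 to 19010 in *Nod2*-/- mice, with medians of 16217 and 14675 and a log2 fold change of -0.04 ± 0.11 (SE, edgeR adjusted p = 0.851). *Ftl1* ran from 27116 to 31067 in WT and from 16176 to 27755 in *Nod2*-/- mice, with medians of 29023 and 25668. For *Ftl1*, 6 of 7 *Nod2*-/- mice lay below the lowest WT mouse, and the seventh lay within the WT range. That gave a log2 fold change of -0.26 ± 0.13 (SE, edgeR adjusted p = 0.23). The exact permutation test gave the smallest p of the 10 genes, 0.00524, but 0.114 after adjustment over all tested genes. The annotated pseudogene *Ftl1-ps1* held 3.60% of the counts of *Ftl1*, and summing the named pseudogenes with their parents left the log2 fold change at -0.26 ± 0.13 (SE).

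**Figure D2:**
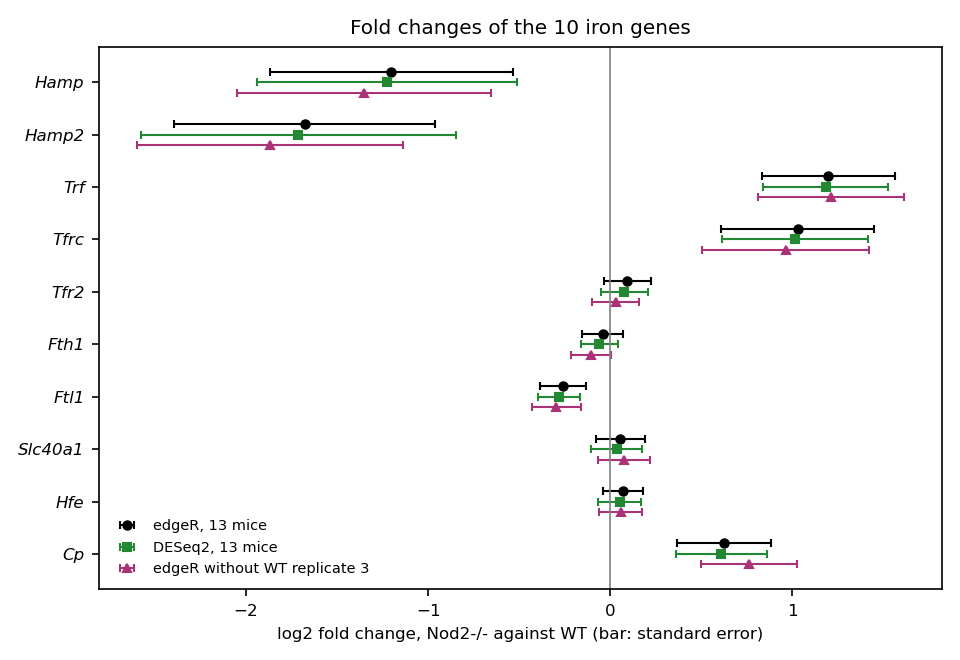
Log2 fold change of each iron gene (x axis, *Nod2*-/- against WT, 0 meaning no difference), with bars of 1 SE, from edgeR on 13 mice (black circles), DESeq2 on 13 mice (green squares) and edgeR without WT replicate 3 (purple triangles). *Hamp* and *Hamp2* lie below 0, *Trf*, *Tfrc* and *Cp* above it and *Ftl1* slightly below, while *Tfr2*, *Fth1*, *Slc40a1* and *Hfe* lie near 0 in all 3 fits.

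Per base of annotated exon, the iron genes of WT liver ordered from *Ftl1* at 3127 ± 256 TPM (SD, n = 6) to *Tfrc* at 10.6 ± 2.31 TPM. *Hamp* came next to *Ftl1*, then *Trf* at 1153 ± 415 TPM, *Fth1* at 663 ± 49.6 TPM and *Cp* at 396 ± 145 TPM. Below these stood *Tfr2* at 217 ± 26.6 TPM, *Slc40a1* at 45.3 ± 7.56 TPM, *Hamp2*, and *Hfe* at 19.5 ± 2.17 TPM. The WT ranges of neighbours in that order did not overlap between *Trf* and *Fth1*, *Cp* and *Tfr2*, *Tfr2* and *Slc40a1*, or *Hfe* and *Tfrc*, and overlapped in every other case. The order and these gaps depend on the length used, which was all annotated exon of a gene. That was 3469 bases for *Fth1* and 9000 for *Slc40a1*, whose transcripts with the elements printed above are 929 and 3370 bases long. *Nod2*-/- livers placed *Trf* at 2661 ± 1444 TPM (SD, n = 7) beside *Ftl1* at 2696 ± 473 TPM, and *Hamp* at 1143 ± 940 TPM. *Tfrc* reached 22.4 ± 17.8 TPM in that group, with 3 of 7 mice at 28.2 to 56.7 TPM.

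**Figure D3:**
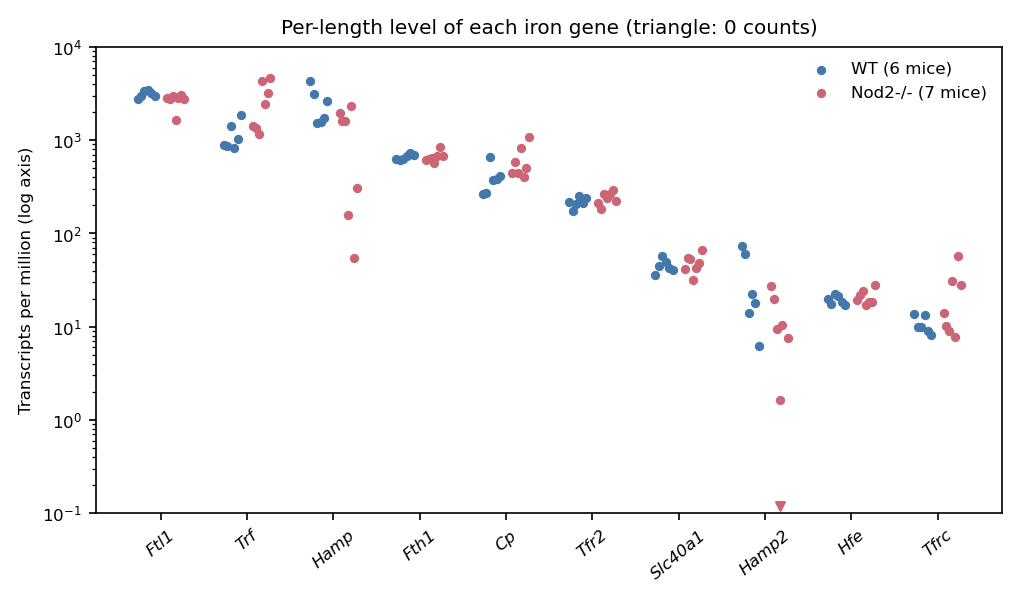
TPM (y axis, log scale) of each iron gene in each of 6 WT (blue) and 7 *Nod2*-/- mice (red), genes ordered along the x axis by their mean level, with a triangle at the foot for the 1 mouse with 0 counts. *Ftl1*, *Trf* and *Hamp* have the highest mean TPM, and *Hamp* spans from 54.5 to 2307 TPM among *Nod2*-/- mice.

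Genes of blood cells were also high or low in these mice. *Nod2*-/- replicates 4, 6 and 7 held 10531, 7165 and 13621 normalized counts of *Hbb-bs*, an adult beta globin, where WT mice held 1214 to 3438. The remaining *Nod2*-/- mice held 1932 to 4701. Of 9 erythroid markers listed, 8 were matched and 6 tested, of which 4 were higher at an unadjusted p under 0.05, where 12.9% of all tested genes were, and 0 passed 5% FDR by edgeR, with *Hba-a1* at a log2 fold change of 1.70 and *Hbb-bs* at 1.42. Their summed level ran from 307 to 524 CPM in WT and from 377 to 1162 in *Nod2*-/- mice. *Alas2*, the erythroid enzyme that opens haem synthesis, went the other way in those mice, at 1281, 1387 and 1308 normalized counts against 2281 to 4387 in WT. Neutrophil markers summed to 4.30 to 11.4 CPM in WT and to 7.08 to 1000 in *Nod2*-/- mice, the highest being replicate 7. Of 11 listed, 5 passed the filter on low counts, and these 5 were higher at an unadjusted p under 0.05 (12.9% of all tested genes). That count leans to genes high in *Nod2*-/- mice. *Prtn3*, at 2.05 to 31.9 normalized counts in WT and 12.9 to 1223 in *Nod2*-/- mice, passed the filter through the latter. *Cxcr2* exceeded every WT mouse only in replicate 7, and its log2 fold change was 1.79 by edgeR and 0.07 by DESeq2 (adjusted p = 0.917). *Ngp* and *Camp*, made by maturing neutrophils, did not pass the filter on low counts and were not tested by edgeR. They averaged 2.44 and 1.23 normalized counts in WT mice and 197 and 66.6 in *Nod2*-/- mice. Replicate 7 held 1271 and 401, and for each gene 5 of 7 *Nod2*-/- mice lay above the highest WT mouse. *Ngp* and *Camp* were also among the genes the study listed from these samples, so their direction is not independent evidence. Kupffer cell markers summed to 161 to 279 in WT and 195 to 597 in *Nod2*-/- mice, with 3 of 9 higher at an unadjusted p under 0.05, and sinusoidal endothelial markers to 226 to 307 and 244 to 304, with 1 of 8 higher, both beside 12.9% of all tested genes, a share that the endothelial list is near. The part of these cells in the values of the iron genes was not tested, and in whole liver fewer cells of a type cannot be told apart from less RNA per cell. Of the 8 hepatocyte markers, all tested, 1 was higher and 2 lower at an unadjusted p under 0.05, beside 12.9% and 10.2% of all tested genes, and 0 passed 5% FDR by edgeR. *Alb* had a log2 fold change of 0.21, *Ttr* of -0.27 and *Apoa1*, the higher one, of 0.53. The lower pair, named after their values were seen, were *Hnf4a*, a transcription factor of hepatocytes, at -0.34 ± 0.10 (SE, edgeR adjusted p = 0.0805, DESeq2 adjusted p = 0.00545) and *Cps1*, an enzyme of the urea cycle, at -0.38 ± 0.15 (SE, edgeR adjusted p = 0.15, DESeq2 adjusted p = 0.0471). *Hnf4a* ran from 10142 to 13030 normalized counts in WT and from 7462 to 10346 in *Nod2*-/- mice, 6 of 7 below the lowest WT mouse, and replicates 6, 7 and 4 were lowest at 7462, 8174.5 and 8444. Its part in the *Hamp* values was not tested. The summed level of the list, most of it *Alb*, was 90147 to 169090 CPM in the 3 mice with little *Hamp* and 74747 to 107420 CPM in WT mice.

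**Figure D4:**
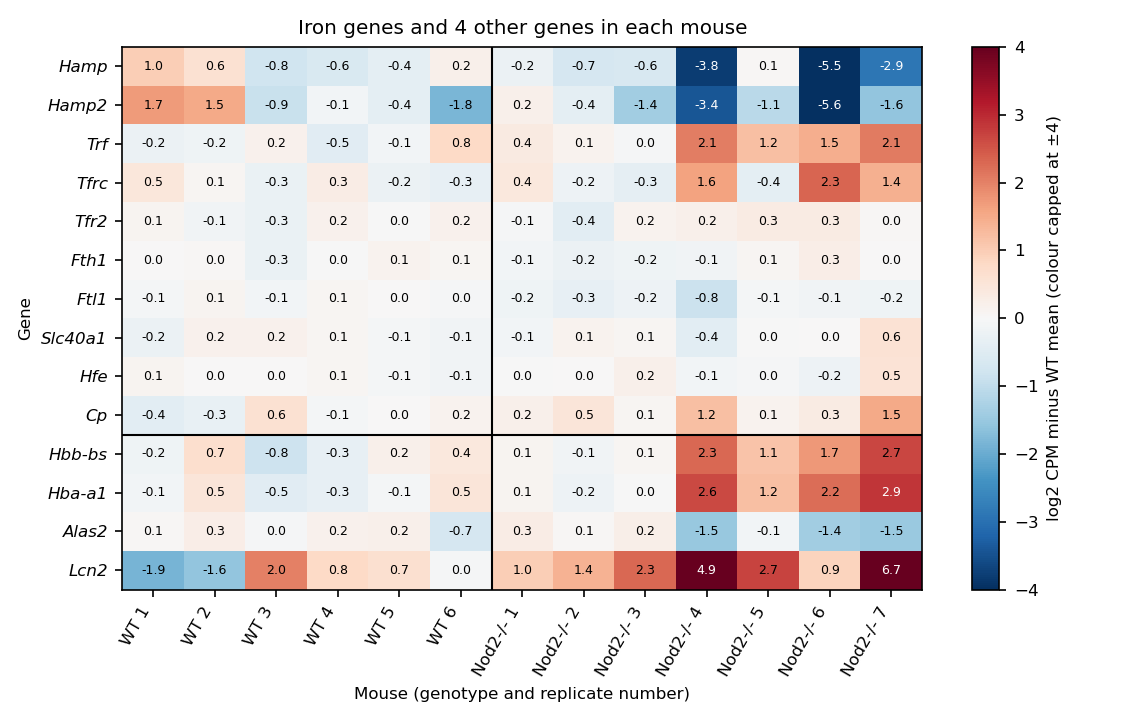
Log2 CPM of each gene (rows) in each mouse (columns) minus the WT mean, with the value printed in each cell, red for higher and blue for lower, and colour capped at 4 either way. The 10 iron genes are above the horizontal line and 4 other genes below it: *Nod2*-/- replicates 4, 6 and 7 show low *Hamp* (-3.8, -5.5 and -2.9) with high *Tfrc*, *Trf* and globins and low *Alas2*.

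The genes whose levels followed *Hamp* most closely over the 13 mice, by Pearson correlation of log2 CPM, were *Rtp3* (r = 0.95), *Ces1f* (0.94), *Sugct* (0.94), *A530017D24Rik* (0.93) and *Gm11221* (0.92). Within the 6 WT mice these were lower, from 0.61 to 0.82, and within the 7 *Nod2*-/- mice from 0.91 to 0.98, a group in which the 3 mice with little *Hamp* lie far from the others. For *Trf* the closest were *Npc2* (r = 0.98), *B4galnt1* (0.97), *Rras* (0.96), *Lsr* (0.96) and *Enho* (0.96), which stood at 0.86 to 0.97 within WT and 0.96 to 0.98 within *Nod2*-/- mice. *Rras* alone of these 10 passed 5% FDR between genotypes, with a log2 fold change of 0.84 (edgeR adjusted p = 0.0422). They were picked for this likeness, so it is a description, and the mice share depth and composition.

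Around the 10 genes, 84 others of iron and haem metabolism were listed by role, and 76 were tested. None passed 5% FDR by edgeR. At an unadjusted p under 0.05, 7 were higher and 11 lower in *Nod2*-/- livers, against 12.9% higher and 10.2% lower of all tested genes. DESeq2 called 3 higher, *Osmr*, *Hpx* and *Lcn2*, and 5 lower, *Aco1*, *Ireb2*, *Nfs1*, *Cpox* and *Fech*, beside 4.38% and 4.03% of all genes. With voomWithQualityWeights 2 were higher and 2 lower, beside 3.83% and 2.39%. The count depended on WT replicate 3: without that mouse edgeR called 2 higher, *Osmr* and *Lcn2*, and 3 lower, *Aco1*, *Nfs1* and *Cpox*, as the share of all genes called went from 1.16% to 8.49% (5.12% higher and 3.37% lower).

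Upstream of hepcidin, of 20 genes of BMP-SMAD control 19 were tested, with a median log2 fold change of 0.04, 2 higher and 2 lower at an unadjusted p under 0.05, near the 12.9% and 10.2% of all tested genes. The higher pair were *Smad1*, at 0.31 (edgeR adjusted p = 0.128), and *Fgl1*, given below. *Smad1* ran from 175 to 269 normalized counts in WT and from 240 to 298 in *Nod2*-/- mice, 4 of 7 above the highest WT mouse. The lower pair were *Acvr2a* at -0.25 and *Neo1* at -0.22 (edgeR adjusted p = 0.185 and 0.184). The ligand genes *Bmp6* and *Bmp2* had log2 fold changes of -0.31 and 0.11 (edgeR adjusted p = 0.425 and 0.657). *Hjv*, the hemojuvelin co-receptor, stood at 0.09 and *Tmprss6*, the protease that cuts it, at -0.16. *Bmp6* was lowest in *Nod2*-/- replicates 4 and 7, at 24.9 and 32.3 normalized counts, but held 58.0 in replicate 6, inside the WT range of 39.8 to 73.5. *Smad7*, *Id1*, *Smad6* and *Atoh8* are known targets of SMAD signalling in liver, and they did not share 1 pattern over the mice. *Smad7* ran from 92.8 to 134 normalized counts in WT and from 73.8 to 139 in *Nod2*-/- mice, with replicates 4 and 6 lowest at 73.8 and 79.7 and replicate 7 at 110. For *Id1* replicates 4, 6 and 7 were the lowest of the *Nod2*-/- mice, at 97.7, 46.7 and 99.0, of which the first and last lay inside the WT range of 52.6 to 196, and among WT mice the 2 with the most *Hamp*, replicates 1 and 2, had the least *Id1*. *Smad6* was highest of the 13 mice in replicate 6, at 107 against 40.6 to 76.2 in WT, and stood inside the WT range in replicates 4 and 7, at 68.8 and 54.9. *Atoh8* held 178 in replicate 6, inside the WT range of 117 to 267, and 101 and 79.4 in replicates 4 and 7, below it. *Fgl1*, which encodes a secreted liver protein known as an antagonist of BMP signalling to hepcidin, had the largest difference of the list. It ran from 662 to 11023 normalized counts in WT and from 3654 to 33890 in *Nod2*-/- mice, and replicates 7, 4 and 6 were highest at 33890, 33778 and 13301. WT replicate 6, at 11023 of *Fgl1*, held 7578 normalized counts of *Hamp*. *Nod2*-/- replicates 3 and 5, at 9714 and 8817 of *Fgl1*, had *Hamp* inside the WT range. The part of *Fgl1* in the *Hamp* values was not tested. The log2 fold change of *Fgl1* was 1.98 ± 0.72 (SE, edgeR adjusted p = 0.129). *Erfe*, which encodes erythroferrone, held too few reads to be tested, at no more than 4.23 normalized counts in any mouse.

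Of 12 genes of IL-6-STAT3 control 10 were tested. *Il6* itself held at most 1.96 normalized counts and was not tested, and its receptor subunits *Il6ra* and *Il6st* had log2 fold changes of -0.29 and -0.01. *Stat3* stood at 0.34 (edgeR adjusted p = 0.237). *Osmr*, the oncostatin M receptor, averaged 78.4 ± 39.8 normalized counts in WT (SD, n = 6) and 159 ± 70.9 in *Nod2*-/- mice (SD, n = 7), with a log2 fold change of 1.01 (edgeR adjusted p = 0.107). The leukaemia inhibitory factor receptor *Lifr* averaged 7157 ± 1033 and 4344 ± 2043, with a log2 fold change of -0.72 (edgeR adjusted p = 0.126). *Il1b*, an inflammatory cytokine, had a log2 fold change of 1.41 (edgeR adjusted p = 0.147), and 199 normalized counts in *Nod2*-/- replicate 7. The study listed *Il1b* as raised in these samples at 5% FDR by DESeq2, where DESeq2 here gave an adjusted p of 0.0646. Of 10 acute phase genes, which share the STAT3 input, 6 were higher at an unadjusted p under 0.05 (12.9% of all tested genes) with a list median log2 fold change of 1.31, and 0 passed 5% FDR. *Saa2*, a serum amyloid, held 48459 normalized counts in *Nod2*-/- replicate 7, 15309 in replicate 4 and 159 in replicate 6, where WT mice held 301 to 1040. The mouse with the least *Hamp* was thus also the lowest of the 13 for *Saa2*, while the other pair with little *Hamp* were the highest. *Saa2* was also among the genes the study listed from these samples.

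Among genes that handle iron inside the cell, those for both iron regulatory proteins had lower means in *Nod2*-/- livers. Of 8 such genes 7 were tested, with 0 higher and 2 lower at an unadjusted p under 0.05, beside 12.9% and 10.2% of all tested genes. *Aco1*, which encodes iron regulatory protein 1, ran from 4375 to 5942 normalized counts in WT and from 3002 to 4657 in *Nod2*-/- mice, 6 of 7 of them below the lowest WT mouse. Its log2 fold change was -0.41 ± 0.12 (SE, edgeR adjusted p = 0.0762, DESeq2 adjusted p = 0.0122). *Ireb2*, for iron regulatory protein 2, ran from 1618 to 1897 and from 1164 to 1758, again with 6 of 7 below, and had a log2 fold change of -0.30 ± 0.10 (SE, edgeR adjusted p = 0.115). The log2 fold changes of *Fbxl5*, which directs degradation of iron regulatory protein 2, and *Ncoa4*, the ferritin autophagy receptor, were 0.07 and -0.19. Iron uptake and endosomal release held 9 tested genes of 10, with a median of -0.05. Of these, 0 had an unadjusted p under 0.05 in either direction, where 23.1% of all tested genes did. There *Slc39a14*, the importer of iron not bound to transferrin, had a log2 fold change of -0.05, *Slc11a2* of 0.33 and *Steap3*, the endosomal ferrireductase, of 0.26.

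Haem synthesis was tested in 8 of 8 genes, with 4 lower and 0 higher at an unadjusted p under 0.05, beside 10.2% and 12.9% of all tested genes, and a median log2 fold change of -0.27. *Alas1*, the rate-limiting enzyme in liver, had a log2 fold change of -0.60 ± 0.26 (SE, edgeR adjusted p = 0.19). *Cpox*, coproporphyrinogen oxidase, had one of -0.46 ± 0.12 (SE, edgeR adjusted p = 0.0673), and *Fech*, which inserts iron into the ring, of -0.35 ± 0.11 (SE, edgeR adjusted p = 0.0988). Of 10 genes of mitochondrial iron and iron-sulphur clusters, 2 were lower at an unadjusted p under 0.05 (10.2% of all tested genes), the mitochondrial importer *Slc25a37* at -0.38 and the cysteine desulphurase *Nfs1* at -0.30. In haem breakdown and scavenging, 2 of 10 were higher at that threshold (12.9% of all tested genes). *Hpx*, for the haem-binding plasma protein hemopexin, ran from 67522 to 129950 normalized counts in WT and from 99386 to 379170 in *Nod2*-/- mice, 5 of 7 above the highest WT mouse, with a log2 fold change of 1.06 ± 0.31 (SE, edgeR adjusted p = 0.0775). *Hp*, for haptoglobin, had a log2 fold change of 1.01 (edgeR adjusted p = 0.132). Haem oxygenase *Hmox1*, which opens the ring and frees the iron, stood at 0.18 (edgeR adjusted p = 0.749).

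*Lcn2* encodes lipocalin 2, which binds bacterial siderophores and so withholds iron, and was also among the genes the study listed from these samples. It ran from 144 to 2112 normalized counts in WT, with a median of 667, and from 982 to 53827 in *Nod2*-/- mice, with a median of 2601. Replicates 7 and 4, at 53827 and 15765, were far above the rest. Replicate 6, with the least *Hamp*, had 982, inside the WT range. The log2 fold change was 3.86 ± 1.08 (SE, edgeR adjusted p = 0.0734, DESeq2 adjusted p = 0.00464).

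**Figure D5:**
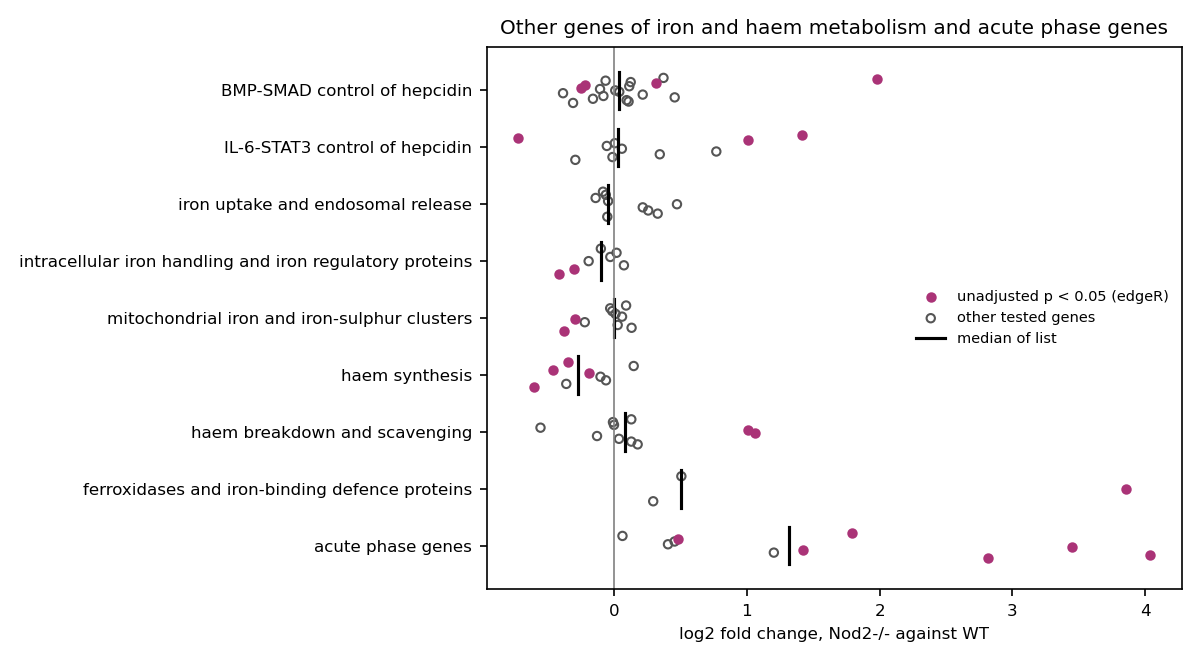
Log2 fold change (x axis, *Nod2*-/- against WT, edgeR) of each tested gene in 8 lists of iron and haem metabolism and in the acute phase list, with filled points for an unadjusted p under 0.05, open points for the others and a black bar at each list's median. Medians lie from -0.27 (haem synthesis) to 0.51 in the iron lists and at 1.31 for acute phase genes, and none of the points passed 5% FDR.

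The knocked-out gene could not check the labels. *Nod2* averaged 2.09 ± 1.41 normalized counts in WT (SD, n = 6) and 2.96 ± 1.92 in *Nod2*-/- mice (SD, n = 7), with at most 6 reads in any mouse, and was not tested. Which part of the gene the deletion removes was not used here.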

How the data were processed

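Liver mRNA libraries of 6 WT and 7 *Nod2*-/- mice were analysed from the deposited gene counts. The authors trimmed reads with Trimmomatic 0.33 and aligned them to GRCm38 with TopHat2 2.1.1, and deposited counts per Ensembl gene that are whole numbers and not normalized. The counting program and its strand setting are not given in the sources used here. A row with a blank identifier (1 in all) was dropped, and 53360 of 53465 genes were matched to GENCODE M21 for names and exon lengths, from which TPM was computed.

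Genes were filtered with filterByExpr (13545 left, 99.9% of counts), scaled by TMM and tested with edgeR 4.0.16 (quasi-likelihood, R 4.3.3, limma 3.58.1), with Benjamini-Hochberg adjustment over all of them. DESeq2 1.42.0, voomWithQualityWeights, other scalings and filters, the replicate number as a block and leaving out each mouse were tried. Log2 CPM used a prior count of 2, and the smallest p of the exact permutation test was 0.000583. Depth, 13824780 to 20579984 counts per mouse, limits the precision of low genes such as *Hamp2* most. Within genotypes, none of 36 pairs of mice matched as closely as 1 library counted again would (chi-square over degrees of freedom, 11.4 to 179). The samples are separate mice by their labels. The tests across genes were checked on simulated data.

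The 10 genes and the pathway and marker lists were chosen with earlier results of these data known. Genes named beside the 10 were, of each pathway list, the first 4 as written and up to 4 more with the smallest unadjusted p under 0.05, of each marker list the first 3, the 5 genes most like *Hamp* and *Trf*, *Nod2*, and pseudogenes. *Id1*, *Smad7*, *Smad6*, *Atoh8*, *Hnf4a*, *Cps1*, *Erfe*, *Alas2*, *Ngp* and *Camp* were named from the lists after their values were seen, or to state what was not tested.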

Additional observations from a re-analysis of the deposited data

Results flagged for a closer look

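Among the 10 iron genes in each genotype, 20 groups of mice were examined for a single mouse standing apart by Dixon's rule, and chance alone would flag about 1 in 20 such groups. *Ftl1* in *Nod2*-/- mice was the one found. *Nod2*-/- replicate 4 held 16176 normalized counts of *Ftl1*, the nearest of the other 6 mice held 22943, and the gap was 0.584 of the group's range against a critical value of 0.568 for 7 samples. The same mouse held 14539 normalized counts of *Fth1*, inside the WT range, and 472 of *Hamp*.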

How the results depend on the processing

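The count of iron genes past 5% FDR stayed at 0 in each direction with voomWithQualityWeights, other scalings, both filters on low counts, without the 20 most abundant genes (none of the 10 among them) and without each mouse in turn (0 to 0), and became 1 higher with DESeq2, *Trf* (adjusted p = 0.0147). For the other iron pathway genes the counts of 0 higher and 0 lower became 3 and 5 with DESeq2, 2 and 2 with voomWithQualityWeights, and 2 and 3 without WT replicate 3, and over all mice left out in turn they ranged from 0 to 2 and from 0 to 3. The cause was not tested. Of 202 recomputed fold changes of the iron genes 198 kept their direction. The log2 fold change of *Slc40a1* ranged from -0.0494 (without *Nod2*-/- replicate 7) to 0.123 and that of *Hfe* from -0.0237 (without the same mouse) to 0.110 as mice were left out in turn.

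Replicate numbers did not pair the mice: the deviations of same-numbered mice correlated between -0.30 and 0.30 over 6 pairs, and 0 of 6 WT mice were closest to their own number. With the replicate number as a block, 0 iron genes and 0 other pathway genes passed in either direction, the log2 fold change of *Tfrc* went from 1.03 to 0.54 and that of *Cp* from 0.63 to 0.41, and 2 turned sign, *Slc40a1* to -0.0526 and *Hfe* to -0.0265. Depth limits *Hamp2* most, at 0 to 312 normalized counts, and leaves *Il6*, *Erfe*, *Osm* and *Nod2* untestable.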
